A study of Mus musculus with 16 samples.

Results

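Known target genes of the transcription factor NF-kappaB were followed in cultured mouse muscle cells that had been exposed to mouse serum. They were Nfkbia, Tnfaip3, Ccl2, Ccl7, Cxcl1, Cxcl5, Il6, Csf1, Vcam1 and Icam1. The genes were taken by exact symbol from a table of 24319 named genes, and 10 of 10 were found. The cells were C2C12 myotubes, multinucleate fibres grown from a mouse myoblast line, kept in serum for 24 hr before poly-A RNA sequencing. The serum donors were mice with a deletion of the clock gene Bmal1 in the liver only (Bmal1hep-/-) or wild-type (WT) mice, bled at Zeitgeber time 16 (ZT16, night) or 4 (ZT4, day). The 4 groups were Bmal1hep-/- ZT16, Bmal1hep-/- ZT4, WT ZT16 and WT ZT4, with 4 libraries each, which the titles call biological replicates. The myotubes themselves carried no deletion in any group, and all 16 libraries came from the same cell line. The labels state neither the Cre driver, nor the age and sex of the donors, nor whether a serum came from 1 mouse or a pool. The p-values therefore reflect only how far these samples spread, and that spread may be technical.

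NF-kappaB dimers are held in the cytoplasm by inhibitor proteins of the IkappaB family. Cytokines such as TNF and interleukin-1, and microbial products that act on Toll-like receptors, activate the IKK kinase complex, which marks the inhibitors for degradation and lets the dimers enter the nucleus. There they bind kappaB sites and switch on inflammatory genes, among them genes for inhibitors of the pathway itself, so that the response limits itself. Skeletal muscle cells respond in this way and secrete chemokines and interleukin-6.

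The promoters are shown because a kappaB site is what the 10 genes are thought to have in common. RefSeq promoter windows (build GRCm38.p6, 250 bases before to 50 after the transcription start) were matched for 6 of the 10 genes, namely Nfkbia, Tnfaip3, Cxcl1, Il6, Csf1 and Icam1. The kappaB consensus was searched on both strands of the 250 bases before the start, and not in the 50 after it. A match lay there in 5 of these 6 genes, and Icam1 had none. Over all windows 3.9% of 32851 held such a match, or 4.46% of genes. A match is a description of the letters and not a measured binding site. The kappaB match is in capitals below, 5′ to 3′ on the strand of the gene.
Csf1: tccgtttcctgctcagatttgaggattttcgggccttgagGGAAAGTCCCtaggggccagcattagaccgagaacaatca
Il6: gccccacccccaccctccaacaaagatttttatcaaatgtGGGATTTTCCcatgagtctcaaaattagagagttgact
Cxcl1: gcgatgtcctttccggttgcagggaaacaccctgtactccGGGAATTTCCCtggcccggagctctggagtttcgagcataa
Nfkbia: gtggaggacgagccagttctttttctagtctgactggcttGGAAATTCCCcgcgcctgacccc
Tnfaip3: aatttccatcGGAAATCCCC
These stretches lie at chr3:107760584-107760663 (minus strand), chr5:30013030-30013107 (plus), chr5:90891134-90891214 (plus), chr12:55492654-55492716 (minus) and chr10:19015413-19015432 (minus), in the order printed. Measured from the transcription start, the match lay at -154 to -145 in Csf1, -44 to -35 in Il6, -71 to -61 in Cxcl1, -29 to -20 in Nfkbia and -12 to -3 in Tnfaip3. The Tnfaip3 window holds another match at -125 to -116, on the opposite strand, which is not printed. In Cxcl1 the consensus matched on both strands in overlapping frames, which gives 11 capital letters.

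Values were FPKM, fragment counts scaled by transcript length and by library size, in which levels of different genes can be compared per length. Read counts were not used here; relative depth, read from the step that a single fragment adds to FPKM, ran from 65.5 to 100% of the deepest library, and summed FPKM from 580818 to 690636. Myotube markers were high in every library, with a summed level of 2629.17 to 3855.14 FPKM over the 5 of 6 markers found. Markers of myoblasts and cycling cells were also present in every library, at a summed 189.7 to 236.6 FPKM. Fibroblast markers summed to 40.9 to 59.0 FPKM. Endothelial markers summed to at most 0.221 FPKM, hepatocyte markers to at most 0.170 FPKM and the 6 macrophage and leukocyte markers to at most 2.36 FPKM, and Ptprc and Adgre1 were listed at 0 in all libraries. In bulk RNA, fewer cells that express a gene and less RNA per cell cannot be told apart.

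All of the genes but Icam1 were expressed in all 16 libraries. Ordered by mean FPKM over the 16 libraries, they were Csf1 (109.8 ± 7.95, SD), Cxcl5 (84.3 ± 44.0), Cxcl1 (64.6 ± 30.8), Ccl2 (54.6 ± 22.8), Ccl7 (49.8 ± 19.7), Vcam1 (32.8 ± 5.21), Nfkbia (26.0 ± 6.41), Il6 (13.9 ± 9.37), Tnfaip3 (4.27 ± 0.451) and Icam1 (0.0116). The ranges of neighbours in this order overlapped in every case but Tnfaip3 and Icam1, so the order from Csf1 down to Tnfaip3 is not sharp library by library.

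Nfkbia and Tnfaip3 encode brakes of the pathway. Nfkbia gives IkappaB-alpha, the inhibitor that is degraded on activation and made again as a target. Replicates 1 to 4 had 23.9, 19.7, 19.5 and 36.5 FPKM in Bmal1hep-/- ZT16, 15.6, 18.2, 29.9 and 31.5 in Bmal1hep-/- ZT4, 36.8, 26.7, 25.9 and 34.0 in WT ZT16, and 27.1, 23.7, 22.3 and 24.2 in WT ZT4. The WT ZT4 libraries lay close together, while each Bmal1hep-/- group held libraries on either side of them, and all groups overlapped. Tnfaip3 gives A20, a ubiquitin-editing enzyme that shuts off signalling upstream of IKK. Its FPKM was 3.87, 4.83, 4.48 and 4.39 in Bmal1hep-/- ZT16, 5.17, 4.29, 4.57 and 4.89 in Bmal1hep-/- ZT4, 4.10, 3.94, 3.54 and 4.11 in WT ZT16, and 4.08, 3.81, 4.43 and 3.75 in WT ZT4. Bmal1hep-/- libraries tended to the upper end, with 5 of 8 above the highest WT library, but the groups overlapped at both times. The share of tested genes with such a count was not computed.

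Ccl2 and Ccl7 encode CC chemokines that attract monocytes. Ccl2 had 58.6, 32.0, 28.2 and 97.8 FPKM in Bmal1hep-/- ZT16, 14.7, 40.6, 41.6 and 72.6 in Bmal1hep-/- ZT4, 91.4, 54.6, 55.4 and 75.8 in WT ZT16, and 33.4, 60.4, 51.4 and 64.9 in WT ZT4. Ccl7 had 60.9, 27.9, 21.1 and 82.2 FPKM in Bmal1hep-/- ZT16, 11.2, 38.5, 57.0 and 68.1 in Bmal1hep-/- ZT4, 68.6, 51.1, 51.8 and 65.3 in WT ZT16, and 31.0, 67.1, 40.7 and 54.1 in WT ZT4. For both genes the lowest library was Bmal1hep-/- ZT4 replicate 1 and the highest Bmal1hep-/- ZT16 replicate 4, so the extremes at either end came under Bmal1hep-/- serum and all groups overlapped. The 2 genes are neighbours on chromosome 11, 8259 bases apart.

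Cxcl1 and Cxcl5 encode CXC chemokines that attract neutrophils. Cxcl1 had 80.5, 52.3, 41.3 and 134 FPKM in Bmal1hep-/- ZT16, 31.7, 30.2, 51.7 and 82.1 in Bmal1hep-/- ZT4, 119, 60.3, 36.7 and 85.7 in WT ZT16, and 31.4, 83.5, 49.5 and 64.5 in WT ZT4. Cxcl5 had 129.9, 77.4, 51.7 and 183 FPKM in Bmal1hep-/- ZT16, 40.3, 39.5, 74.9 and 106 in Bmal1hep-/- ZT4, 144, 62.4, 33.8 and 125 in WT ZT16, and 32.5, 90.4, 61.9 and 97.0 in WT ZT4. The highest library was again Bmal1hep-/- ZT16 replicate 4, and all groups overlapped. Cxcl5 and Cxcl1 lie 129617 bases apart on chromosome 5.

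Il6 encodes interleukin-6, a cytokine that working muscle also releases. It had 14.2, 6.90, 5.57 and 24.8 FPKM in Bmal1hep-/- ZT16, 3.57, 5.59, 19.2 and 31.1 in Bmal1hep-/- ZT4, 33.6, 13.5, 5.25 and 15.8 in WT ZT16, and 8.23, 13.6, 5.11 and 16.2 in WT ZT4. Each group held a library below 6 FPKM and another above 15 FPKM, and the highest library of all was 9.41 times the lowest. Csf1 encodes the macrophage growth factor M-CSF and was the steadiest of the genes. It had 111, 106, 96.5 and 107 FPKM in Bmal1hep-/- ZT16, 95.7, 111, 98.3 and 109 in Bmal1hep-/- ZT4, 114, 112, 114 and 119.7 in WT ZT16, and 115, 113, 125 and 110.0 in WT ZT4. All 8 Bmal1hep-/- libraries lay below the median of the 8 WT libraries and 6 of 8 below the lowest WT library. The share of tested genes with such counts was not computed. At ZT16 the groups did not overlap, lower in Bmal1hep-/-, as in 5.92% of all tested genes.

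Vcam1 and Icam1 encode adhesion molecules that hold leukocytes through integrins. Vcam1 had 40.4, 29.9, 29.6 and 42.0 FPKM in Bmal1hep-/- ZT16, 22.9, 29.3, 30.8 and 35.8 in Bmal1hep-/- ZT4, 38.05, 32.7, 28.5 and 32.4 in WT ZT16, and 25.6, 35.5, 34.7 and 36.3 in WT ZT4, with overlap between all groups. Icam1 was listed above 0 in 4 of 16 libraries, at 0.0759 FPKM in Bmal1hep-/- ZT16 replicate 4, 0.0223 in Bmal1hep-/- ZT4 replicate 3, and 0.0187 and 0.0684 in WT ZT16 replicates 3 and 4. It was therefore not tested with the other genes, and exact two-sided permutation tests of each pair of groups gave p of 0.4286 to 1. With values above 0 in so few libraries, these tests could not reach a p under 0.05. They do not tell whether serum changed Icam1.

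**Figure D1:**
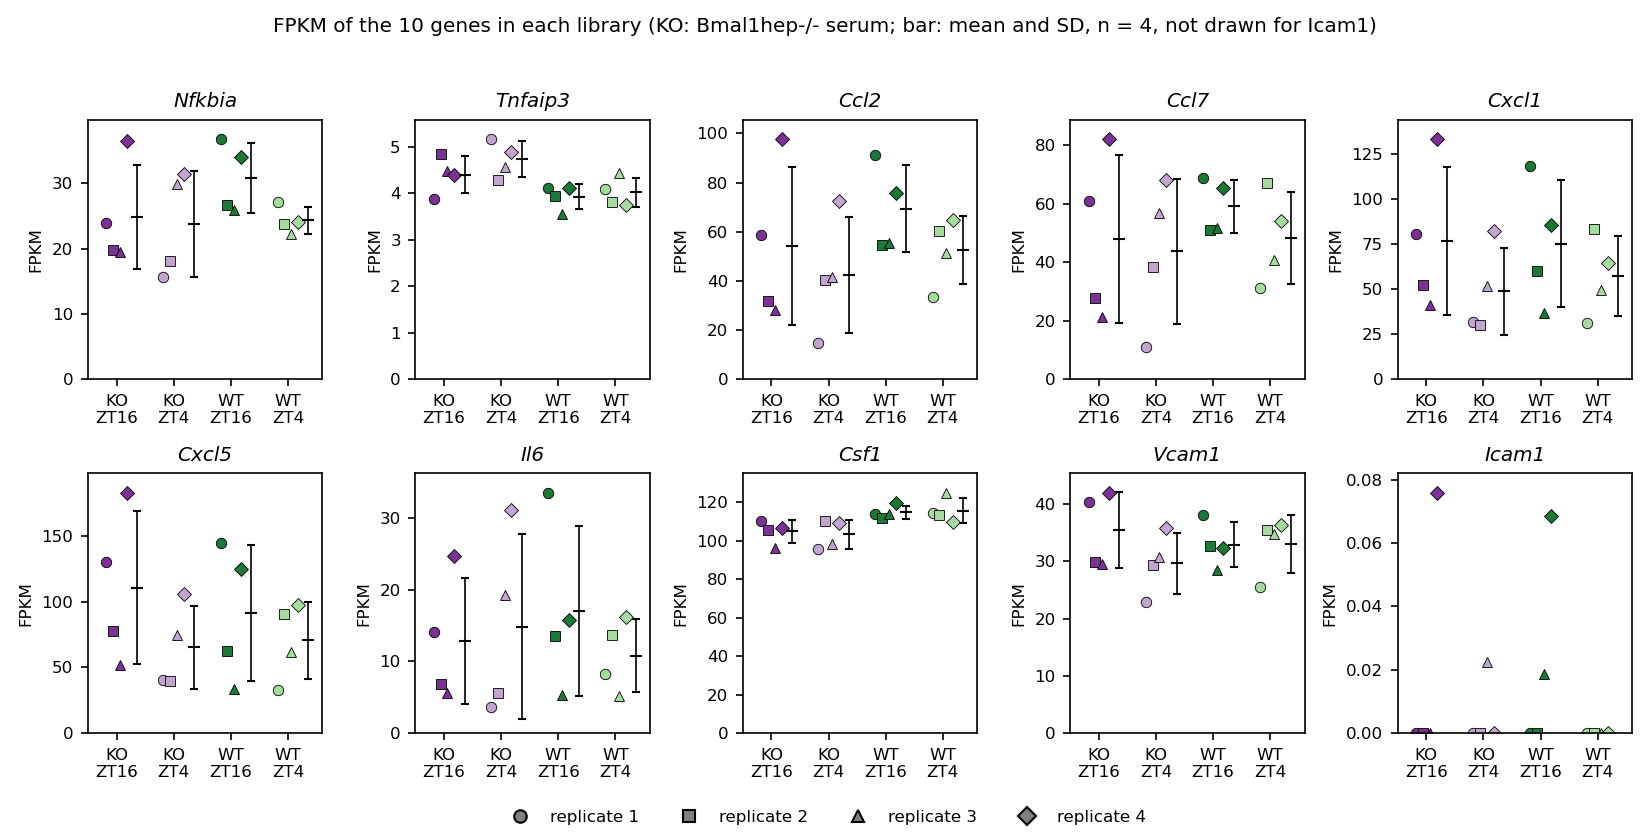
FPKM of each gene (vertical axis, linear, from 0) in each of the 16 libraries, by serum group; KO stands for Bmal1hep-/-, marker shapes for the replicate number of the titles, and the bar beside each group for its mean and SD (n = 4). Over the 16 libraries Il6 spans 9.41 times from lowest to highest and Csf1 1.31 times. All 8 Bmal1hep-/- libraries of Csf1 lie below the WT median, a count whose share over all tested genes was not computed.

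The first question was whether serum of Bmal1hep-/- mice gave another level of these genes than WT serum. At ZT16, Csf1 averaged 104.9 ± 5.99 FPKM in Bmal1hep-/- and 114.9 ± 3.34 FPKM in WT (SD, n = 4 each), a difference of -0.13 ± 0.06 (estimate ± SE of log2(FPKM+1), which understates the change of low genes). Ccl2 averaged 54.1 ± 32.1 FPKM in Bmal1hep-/- and 69.3 ± 17.7 FPKM in WT, Nfkbia 24.9 ± 7.97 and 30.8 ± 5.41 FPKM, and Cxcl5 110.5 ± 58.2 and 91.3 ± 51.9 FPKM, in the same order of groups. No member of the 9 tested genes passed a Benjamini-Hochberg adjusted p of 0.05 in limma, against 0.0509% of the 11783 genes tested. Csf1 (adjusted p = 0.38) was the only one of the 9 with an unadjusted p under 0.05 in limma, where 1502 of 11783 genes had one, and in the exact permutation test (p = 0.02857, the smallest that 70 assignments can give; adjusted p = 0.2408). Csf1 was also the only one whose groups did not overlap, lower in Bmal1hep-/-, as in 5.92% of all tested genes. That share counts the lower direction only, whereas the shares given for the other comparisons count either direction. The median difference of the 9 genes was -0.13, against 0.01 over all tested genes.

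At ZT4, Csf1 averaged 103.4 ± 7.51 FPKM in Bmal1hep-/- and 115.8 ± 6.56 FPKM in WT, and Tnfaip3 4.73 ± 0.381 and 4.02 ± 0.311 FPKM. The differences were -0.16 ± 0.06 for Csf1 (95% interval -0.29 to -0.03, adjusted p = 0.3761 in limma) and 0.19 ± 0.08 for Tnfaip3 (0.03 to 0.35, adjusted p = 0.41). Ccl2 averaged 42.4 ± 23.7 FPKM in Bmal1hep-/- and 52.5 ± 13.9 FPKM in WT. In limma 0 of 9 genes passed, 2 of 9 (Csf1 and Tnfaip3) had an unadjusted p under 0.05 and 0 of 9 in the exact permutation test. Over all tested genes 0.00849% passed and 1210 of 11783 had an unadjusted p under 0.05. Groups overlapped for all 9, whereas they did not for 3.93% of all tested genes.

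Over both times, Bmal1hep-/- minus WT was -0.15 ± 0.04 for Csf1 (95% interval -0.24 to -0.06, unadjusted p = 0.003246, adjusted p = 0.1905 in limma) and 0.16 ± 0.05 for Tnfaip3 (0.05 to 0.27, adjusted p = 0.2643). The 8 Bmal1hep-/- libraries of Csf1 averaged 104.2 ± 6.34 FPKM and the 8 WT libraries 115 ± 4.84 FPKM, and those of Tnfaip3 4.56 ± 0.403 and 3.97 ± 0.272 FPKM. These 2 genes put 53.3% of their variation between groups, against 3.94 to 21.5% in the other 7 and a median of 22.5% over all tested genes. For each of the 2, 94.0% of tested genes had a share as small or smaller, and the rest a larger share. The sign of Csf1 stayed below 0 and that of Tnfaip3 above 0 in each of the 16 fits that left out 1 library, with adjusted p between 0.08 and 0.366 for Csf1 and between 0.177 and 0.444 for Tnfaip3. Differences of the other 7 ran from -0.47 (Ccl2) to 0.10 (Cxcl5), with intervals that include 0. Neither these 9 genes nor any other passed in limma, so that 0% of the tested genes were called; 1393 of 11783 had an unadjusted p under 0.05, with 2 of 9 here. For none of the 9 did the 8 Bmal1hep-/- and 8 WT libraries separate without overlap, as they did for 0.0594% of all tested genes.

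The second question was whether night serum differed from day serum. Under Bmal1hep-/- serum, Cxcl5 averaged 110.5 ± 58.2 FPKM at ZT16 and 65.1 ± 31.8 FPKM at ZT4, Cxcl1 76.9 ± 41.2 and 48.9 ± 24.2 FPKM, and Vcam1 35.5 ± 6.63 and 29.7 ± 5.32 FPKM (SD, n = 4 each). The differences were 0.72 ± 0.48 for Cxcl5, 0.62 ± 0.41 for Cxcl1 and 0.25 ± 0.14 for Vcam1, with adjusted p of 0.57, 0.57 and 0.52 in limma. Il6 differed by 0.01, but its 95% interval of -1.27 to 1.30 takes in a change by 1 log2 unit in either direction. None of the 9 genes passed in limma, against 0.0170% of all tested genes. None had an unadjusted p under 0.05 in limma or the exact permutation test, and 1400 of 11783 genes had one in limma. Groups overlapped for all 9, and did not for 5% of all tested genes.

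Under WT serum, Il6 averaged 17.0 ± 11.9 FPKM at ZT16 and 10.8 ± 5.05 FPKM at ZT4, Ccl2 69.3 ± 17.7 and 52.5 ± 13.9 FPKM, and Nfkbia 30.8 ± 5.41 and 24.3 ± 2.00 FPKM. The differences were 0.47 ± 0.61, 0.40 ± 0.41 and 0.32 ± 0.21, each with an adjusted p of 0.999 in limma. Vcam1 differed by 0.0012 with an interval of -0.31 to 0.31, and Csf1 by -0.01 with an interval of -0.14 to 0.12. In limma 0 of 9 genes passed, as did 0% of all tested genes. An unadjusted p under 0.05 was found for 0 of 9 in limma or in the exact permutation test, and for 468 of 11783 genes in limma. Groups overlapped for all 9, while they did not for 4.35% of all tested genes.

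With both genotypes averaged, ZT16 minus ZT4 was above 0 for 8 of 9 genes, from 0.01 (Csf1) to 0.50 (Cxcl5), and -0.06 for Tnfaip3; 51.8% of all tested genes were above 0. Cxcl5 had a median of 101 FPKM in the 8 ZT16 libraries and 68.4 FPKM in the 8 ZT4 libraries, and Cxcl1 70.4 and 50.6 FPKM. Since 7 of the 9 genes varied together from library to library, as described next, their common sign is not 7 separate observations. In limma 0 of 9 genes passed (adjusted p from 0.9688 upward) or had an unadjusted p under 0.05, and 0% of all tested genes passed, with 539 of 11783 at an unadjusted p under 0.05. The 8 ZT16 and 8 ZT4 libraries overlapped for all 9, and separated for 0.00849% of all tested genes.

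The difference in night effect between genotypes, (Bmal1hep-/- ZT16 minus ZT4) minus (WT ZT16 minus ZT4), ran from -0.46 ± 0.86 for Il6 to 0.44 ± 0.68 for Cxcl5. The narrowest interval was that of Csf1, -0.15 to 0.21, and the widest that of Il6, -2.27 to 1.35. No gene of the 9 passed or had an unadjusted p under 0.05 in limma, against 0.0934% of all tested genes that passed and 1209 of 11783 with an unadjusted p under 0.05. In a test for any difference among the 4 groups, 0 of 9 passed (0.0255% of all tested genes did), and Csf1 (adjusted p = 0.38) and Tnfaip3 (adjusted p = 0.43) had an unadjusted p under 0.05, as did 1318 of 11783 genes. The 4 groups each enter several of these comparisons, so the results are not independent of one another.

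**Figure D2:**
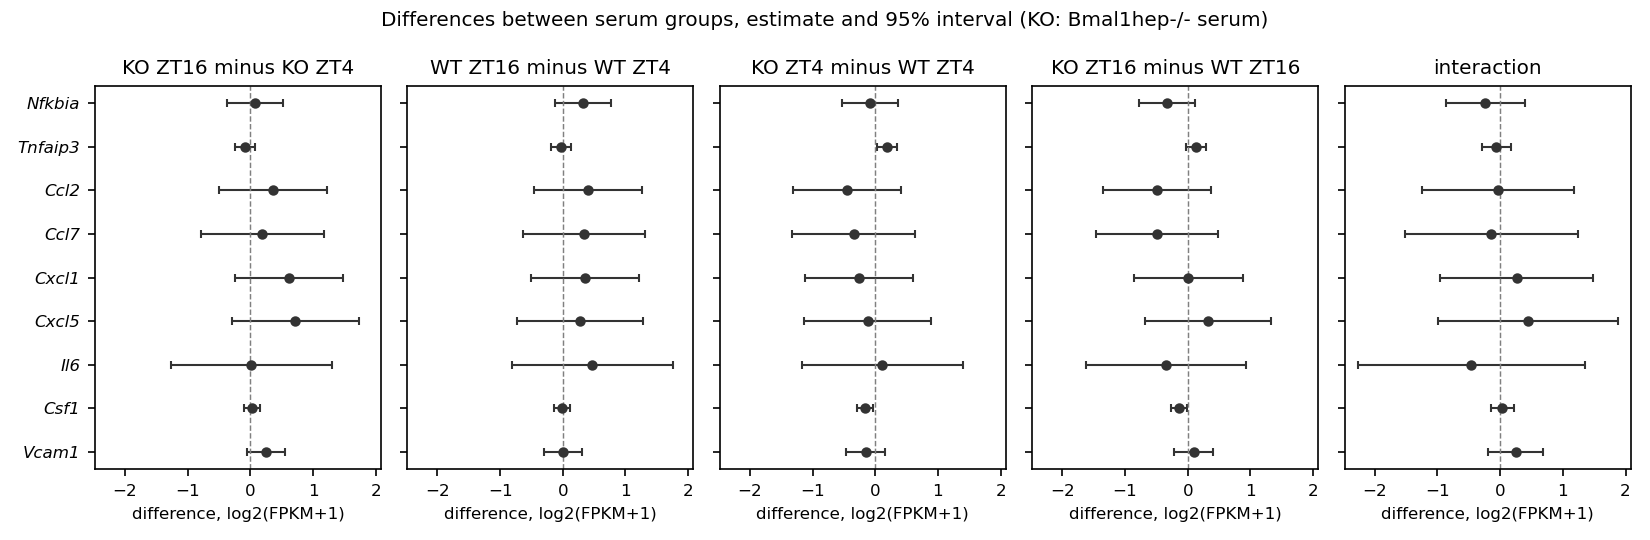
Difference in log2(FPKM+1) between serum groups (horizontal axis) with its 95% interval from limma, for the 9 tested genes in 5 comparisons; KO stands for Bmal1hep-/-, and the interaction is the night effect in Bmal1hep-/- minus that in WT. In the 4 pairwise comparisons the half-width of the interval runs from 0.13 (Csf1) to 1.28 (Il6), and the intervals of Csf1 at both times and of Tnfaip3 at ZT4 leave out 0.

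The spread between libraries of the same group was wide for most of the genes. The within-group SD of log2(FPKM+1), pooled over the 4 groups, was 1.01 for Il6, 0.79 for Cxcl5, 0.77 for Ccl7 and 0.68 for both Cxcl1 and Ccl2, against a median of 0.13 over all tested genes. An SD as large as that of Il6 was found in 0.153% of tested genes, and as large as those of the 4 chemokines in 0.246 to 0.433%. Nfkbia (0.34, reached by 3.01% of tested genes) and Vcam1 (0.23, reached by 10.01%) were intermediate. Tnfaip3 (0.09) and Csf1 (0.08) were below the median, with an SD as large in 77.5 and 87.3% of tested genes. From the lowest to the highest of the 16 libraries, the genes spanned 9.41 times for Il6, 7.36 for Ccl7, 6.64 for Ccl2, 5.63 for Cxcl5, 4.42 for Cxcl1, 2.36 for Nfkbia, 1.84 for Vcam1, 1.46 for Tnfaip3 and 1.31 for Csf1.

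**Figure D3:**
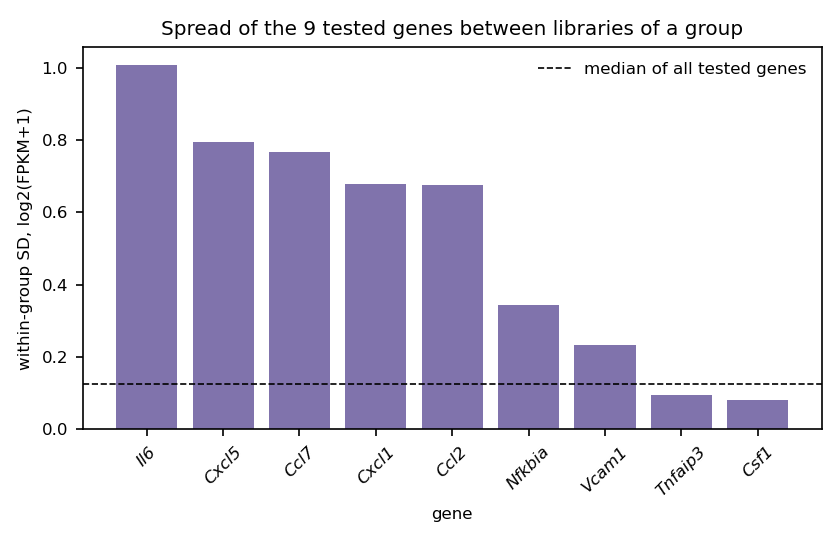
Within-group SD of log2(FPKM+1), pooled over the 4 serum groups with 12 residual degrees of freedom (vertical axis), for the 9 tested genes; the dashed line is the median of all tested genes, 0.13. Il6 and the 4 chemokines stand at 0.68 to 1.01, and Tnfaip3 and Csf1 below the line.

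These wide swings were shared. In Bmal1hep-/- ZT16, replicate 4 was the highest and replicate 3 the lowest of the 4 libraries for all 7 of Nfkbia, Ccl2, Ccl7, Cxcl1, Cxcl5, Il6 and Vcam1, a set named after these values were seen. In Bmal1hep-/- ZT4, replicate 4 was the highest for 7 of 7 and replicate 1 the lowest for 5 of 7. In WT ZT16, replicate 1 was the highest for 7 of 7 and replicate 3 the lowest for 5 of 7. WT ZT4 was less uniform, with replicate 4 the highest for 4 of 7 and replicate 1 the lowest for 5 of 7.

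Over the 16 libraries, 36 pairs of the 9 genes were compared. The 21 pairs among those 7 had Pearson's r of 0.59 (Nfkbia and Vcam1) to 0.96 (Cxcl1 and Cxcl5), with Benjamini-Hochberg adjusted permutation p of at most 0.0267, and Spearman's rho of 0.51 to 0.95, with adjusted permutation p of at most 0.0786 and under 0.05 in 20 of 21. Without the 2 libraries farthest from the median of the first gene, r was at least 0.5 in 20 of 21 pairs and 0.35 for Nfkbia and Vcam1. With each gene centred on its group means, r was 0.66 to 0.97, so the relation lies within groups; 2.23% of all pairs of tested genes reached 0.66. The tightest pairs were Cxcl1 with Cxcl5 (centred r = 0.97) and Ccl2 with Ccl7 (0.96). The genes of these pairs lie 129617 and 8259 bases apart, each pair on the same chromosome. Il6 was close to Cxcl1 (0.90) and Nfkbia (0.88), and Vcam1 to Ccl2 (0.93).

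Csf1 and Tnfaip3 stood apart from this pattern. Their 15 pairs had r of -0.53 to 0.59, and 1 of 15, Ccl2 with Csf1 (r = 0.59, rho = 0.39), had an adjusted permutation p under 0.05 for r (0.0269), which was 0.209 for rho; without the 2 farthest libraries r was 0.19. Tnfaip3 with Csf1 had r of -0.53 (adjusted permutation p = 0.0529) and rho of -0.57 (0.0413), and a centred r of -0.06. The promoter of Csf1 holds a kappaB match, as those of Il6, Cxcl1 and Nfkbia do, and the centred r of Csf1 with these 3 genes was 0.15, 0.26 and 0.26. No promoter window was matched for Ccl2, Ccl7, Cxcl5 and Vcam1, with which the centred r of Csf1 was 0.53, 0.48, 0.28 and 0.45. A relation between kappaB matches and the shared swings was not tested. Nfkbia and Tnfaip3, both feedback inhibitors of the pathway, had a centred r of -0.04.

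**Figure D4:**
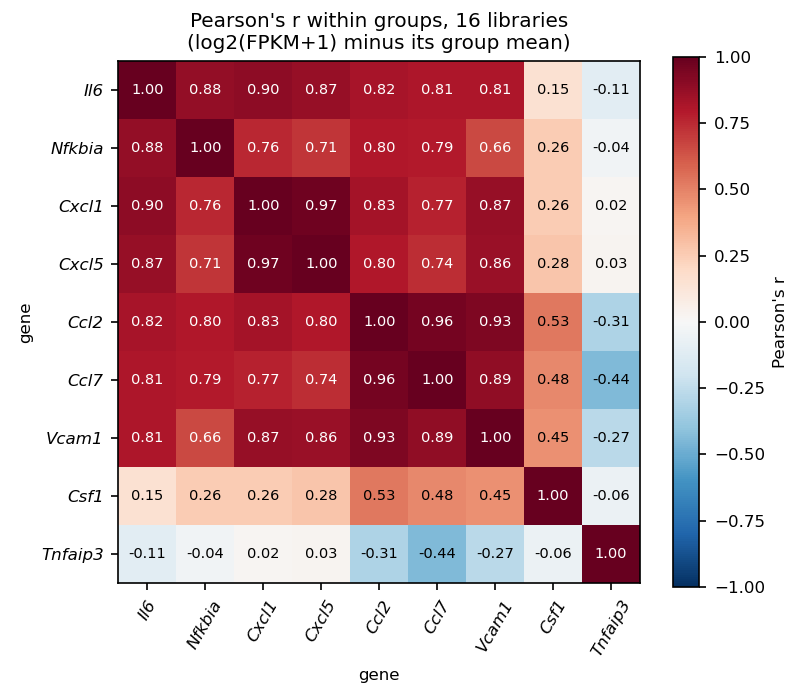
Pearson's r between the 9 tested genes over 16 libraries, computed on log2(FPKM+1) minus its group mean; both axes list the genes and color gives r. The block of Il6, Nfkbia, Cxcl1, Cxcl5, Ccl2, Ccl7 and Vcam1 holds values of 0.66 to 0.97, and the rows of Csf1 and Tnfaip3 hold -0.44 to 0.53.

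Measures of the libraries were set beside the swings. Within groups, r of the 9 genes with relative depth ran from -0.28 (Nfkbia) to 0.10 (Csf1), and with the level of short against long transcripts from 0.04 (Nfkbia) to 0.43 (Csf1). With the summed myotube markers it ran from -0.33 (Tnfaip3) to 0.43 (Ccl7), and with the summed fibroblast markers from -0.55 (Tnfaip3) to 0.13 (Csf1). Of the fibroblast list, Dcn (5.3 to 10.8 FPKM) had a centred r of 0.74 with Il6 and 0.80 with Ccl2, Pdgfra (0.645 to 1.68 FPKM) 0.53 and 0.48, Col1a1 -0.48 and -0.41, and Lum was at 0.138 FPKM or less. Their part in the shared swings was not tested.

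The rest of the pathway was described by 10 lists of 144 genes, of which 96 were tested, and 0 of 96 passed in any of the 8 comparisons. The smallest adjusted p was 0.1651 in limma, for Ticam1, an adaptor of Toll-like receptors, at 0.32 ± 0.08 for Bmal1hep-/- minus WT over both times. By list, the genes with the smallest p for any group difference included Hmgb1 among ligands (adjusted p = 0.43), Ticam1, Il1rap and Il1r1 among receptors and adaptors (0.31 to 0.35), Map3k14 among kinases (0.46), Rel and Nfkb2 among subunits (0.41 and 0.46) and Zfp36 among inhibitors and feedback genes (0.47). Among other target genes, Pdgfb had -0.27 ± 0.09 and Timp1 -0.28 ± 0.09 for Bmal1hep-/- minus WT over both times, with adjusted p of 0.28 and 0.26, and among other adhesion genes F11r had 0.21 ± 0.06 (adjusted p = 0.20). Of the 14 other chemokines of the list, 7 were expressed highly enough to be tested. Cx3cl1 and Cxcl12 averaged 13.9 and 11.4 FPKM and Ccl5 3.20 FPKM, while Ccl3 and Ccl20 were listed at 0 in all libraries, and Cxcl2 and Cxcl10 averaged 0.0700 and 0.150 FPKM. Of a list of 15 chemokine, cytokine and integrin receptor genes, 6 were tested. Itgb1, a subunit of the integrin that binds VCAM-1, averaged 375.7 FPKM, Il6st, the signalling receptor for interleukin-6, 29.2 FPKM, Ackr3, an atypical chemokine receptor, 23.7 FPKM and Il6ra, which binds interleukin-6, 1.23 FPKM. Ccr2 averaged 0.000875 FPKM, Cxcr2 0.0212 FPKM and Csf1r 0.0751 FPKM. The ligand genes Tnf and Il1a averaged 0.175 and 0.220 FPKM, and Il1b 4.52 FPKM.

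Among the 10 lists, that of inhibitors and feedback genes held the largest share of genes that swung with Il6. A centred r of at least 0.6 with Il6 was found for 4.2% of all tested genes, and of at most -0.6 for 4.64%. Of 12 tested inhibitors and feedback genes, 6 reached 0.6: Zc3h12a (0.93), which encodes the RNase Regnase-1, Nfkbiz (0.92) and Bcl3 (0.90), which encode nuclear IkappaB proteins, Tnip1 (0.86), whose product works with A20, Nfkbie (0.80), which encodes IkappaB-epsilon, and Tnfaip8 (0.62). Of 5 subunit genes, 2 reached it, Nfkb1 (0.76) and Relb (0.71), and of 21 receptor and adaptor genes 5, led by the TNF receptor gene Tnfrsf1a (0.87). None of the 11 IKK and upstream kinase genes did, and Chuk, which encodes IKK-alpha, had -0.70 and Map3k3 -0.64. Of other lists, 2 of 7 target chemokines (Cxcl16 and Ccl11), 1 of 5 target cytokines (Lif), 4 of 17 further targets (among them Sod2 at 0.78 and Saa3 at 0.71), 1 of 5 ligands (Il33 at 0.75), 2 of 6 receptors of the encoded ligands (Ackr3 at 0.87 and Ccr1 at 0.61) and 0 of 7 adhesion genes reached it, and among the adhesion genes Cd44 had -0.75. These genes were named for their r after it was seen. Their counts are descriptions over the same 16 libraries of 4 serum groups, and a part of depth or handling in them was not tested.

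**Figure D5:**
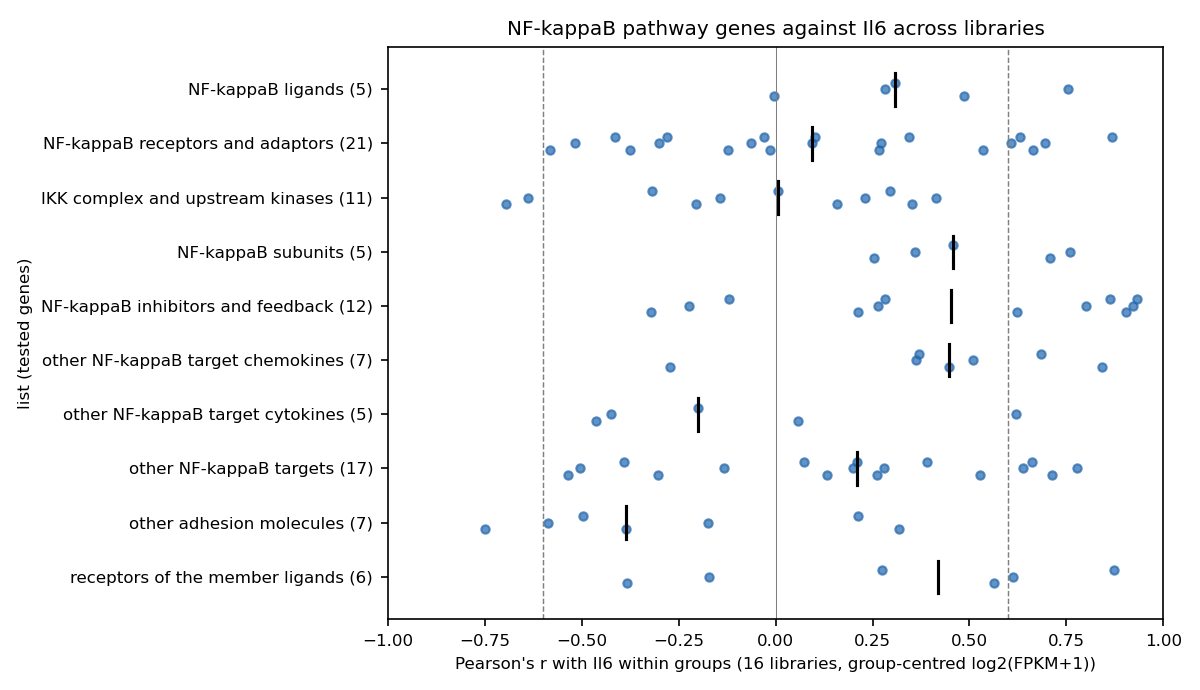
Pearson's r of each tested pathway gene with Il6 within groups (horizontal axis; 16 libraries, log2(FPKM+1) minus its group mean), by list with the number of tested genes; each point is a gene, the black bar the median of its list, and the dashed lines mark 0.6 and -0.6. Of the inhibitors and feedback genes 6 of 12 lie beyond 0.6, and of the kinases 0 of 11.

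The genes most like each of the 9 over the 16 libraries, by Pearson's r among 11215 candidates, are given as descriptions. Il6 was closest to Cebpd (r = 0.95, rho = 0.90; 5.58 to 36.2 FPKM), the gene of the transcription factor C/EBP-delta, and to Nfkbiz (r = 0.92). Nfkbia was closest to Zc3h12a (0.96) and Glrx (0.93), Ccl2 to Bcl3 (0.93) and Socs3 (0.91), a feedback inhibitor of cytokine signalling, and Ccl7 to Nek6 and Bcl3 (both 0.89). Cxcl1 was closest to Pi15 and Cebpd (both 0.87), Cxcl5 to Cntnap1 (0.89) and C1ra (0.84), and Vcam1 to Pi15 (0.91) and Bcl3 (0.90). Bcl3 was thus named for 3 of the 9 genes and Cebpd and Pi15 for 2 each. The nearest genes of Csf1 were Ckap2 (0.81) and Gemin6 (0.78), and of Tnfaip3 Qdpr and Tm7sf2 (both 0.82), none of which was named for another of the 9.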

How the data were processed

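The authors deposited gene values in FPKM. Per the labels' protocols, libraries were made from poly-A RNA with random-hexamer priming. The submitters' processing notes name FastQC 0.11.8 and STAR and the builds mm10 and GRCm39; no source used here names the program or annotation behind FPKM. Of 24346 genes, 27 with date-like symbols were left out.

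Genes with a mean of at least 0.5 FPKM (11783) were fitted as log2(FPKM+1) with limma 3.58.1 in R 4.3.3 (4 group means, eBayes with trend, 12 residual degrees of freedom); adjusted p under 0.05 passed. Exact permutations used 70 assignments, so their p could not fall below 0.02857. After adjustment over all tested genes, such a p passes only if most of them reach it. Python 3.11.15 (scipy 1.17.1, matplotlib 3.10.9) gave correlations and figures. Scripts were tested on simulated data. Without counts, depth per gene is unknown. The 10 genes, the lists and the tests were chosen with earlier results of these data known. All 10 genes were named in each comparison, with the 2 genes of highest r to each and up to 4 genes per list by smallest p; genes named for their r with Il6 fall outside this rule. Alternatives covered pseudocount, filter, scaling, weights, replicate block, groups fitted, left-out libraries and, chosen after seeing the data, heading numbers and transcript length. Promoters come from RefSeq.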

Additional observations from a re-analysis of the deposited data

Results flagged for a closer look

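In each group of 4 libraries, a library was marked where its gap to the nearest other took up more of the group's range than chance usually gives. This marked 14 of 300 combinations of gene and group, and chance marks about 1 in 20. The marks were thus no more than chance gives, and they are listed as descriptions. Of the 36 combinations of the 9 tested genes, 1 was marked: Vcam1 had 25.6 FPKM in WT ZT4 replicate 1, where the other 3 libraries had 34.7 to 36.3 FPKM. Among pathway genes, Bmal1hep-/- ZT4 replicate 1 stood apart for Chuk (18.6 FPKM) and Pdgfb (3.52 FPKM), and Bmal1hep-/- ZT4 replicate 4 for Nfkb2 (35.6 FPKM) and Timp1 (2181.4 FPKM). In Bmal1hep-/- ZT16, Zc3h12a had 15.4 FPKM in replicate 4, the library in which Il6 and the chemokines were highest, against 9.24 to 10.1 FPKM in the others. Zfp36 had 6.47 FPKM in replicate 1 and Alcam 30.9 FPKM in replicate 3 of the same group. In WT serum, Nfkb2 had 32.6 FPKM in ZT16 replicate 4, and Jam2 had 35.9 FPKM in ZT4 replicate 4. Among markers and nearest genes, Cdk1 had 78.6 FPKM in Bmal1hep-/- ZT16 replicate 2, Dcn 5.3 FPKM and Tm7sf2 14.8 FPKM in Bmal1hep-/- ZT4 replicate 1, and Pdgfra 1.3 FPKM in WT ZT4 replicate 4.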

How the results depend on the processing

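None of the 9 tested genes passed in any of the 8 tests under any of the alternatives run, whether planned (pseudocount 0.1, no filter, a mean of at least 2 FPKM, median-ratio scaling, same summed FPKM, weights per library, only the groups compared, replicate block by titles, each library left out) or chosen after seeing the data (replicate block by column headings, length trend removed): the count was 0 throughout. The smallest adjusted p was 0.08, for Csf1 in Bmal1hep-/- minus WT over both times without Bmal1hep-/- ZT4 replicate 4. Over all tested genes, the deviations of same-numbered libraries from their group means had r over 0.1 in 4 of 24 pairs by titles and 8 of 24 by headings, and 5 and 7 of 16 libraries were closest to their own number. Mean r was 0.065 for the same heading number and -0.022 for other numbers, and 0.0024 and -0.00077 by titles. Since not every pair passed 0.1, which is a strict bar, numbers were not taken as pairs. Differences within groups by heading number nevertheless made up 38.0 to 77.8% of the total variation of 7 of the 9 genes. The SE and intervals given in the Results come from the fit without a block, so they count these differences as spread. With either replicate block 0 of 9 genes passed.

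Over all tested genes the counts called moved: in place of 2 for Bmal1hep-/- ZT16 minus Bmal1hep-/- ZT4 they ran from 0 to 62, in place of 6 for Bmal1hep-/- ZT16 minus WT ZT16 from 0 to 254 (library weights), in place of 1 for Bmal1hep-/- ZT4 minus WT ZT4 from 0 to 16, in place of 11 for the interaction from 3 to 127, in place of 3 for any difference from 0 to 48, and in place of 0 up to 166 for Bmal1hep-/- minus WT over both times, 18 for WT ZT16 minus WT ZT4 and 1 for ZT16 minus ZT4 over both genotypes.

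Signs turned, also in the lowest interaction of the 9 genes (Il6, -0.46); the causes were not tested. Scaling to the same summed FPKM moved the median of all genes to 0.10 for Bmal1hep-/- ZT16 minus WT ZT16 and 0.17 for the interaction, and gave interactions of 0.15 (Ccl2), 0.042 (Ccl7) and 0.091 (Tnfaip3), and -0.0815 for Vcam1 in WT ZT16 minus WT ZT4. Library weights gave -0.038 for Csf1 in Bmal1hep-/- ZT16 minus Bmal1hep-/- ZT4, -0.023 in ZT16 minus ZT4 over both genotypes and -0.031 in the interaction, -0.0039 for Cxcl1 in Bmal1hep-/- ZT16 minus WT ZT16, -0.0001 for Cxcl5 in Bmal1hep-/- minus WT over both times, -0.21 for Il6 in Bmal1hep-/- ZT4 minus WT ZT4 and 0.0026 for Tnfaip3 in the interaction. Removing the length trend gave 0.0004 for Csf1 in WT ZT16 minus WT ZT4 and -0.0026 for Cxcl1 in Bmal1hep-/- ZT16 minus WT ZT16. Leaving out 1 library at a time turned the sign of 27 estimates. For Bmal1hep-/- ZT16 minus Bmal1hep-/- ZT4, the ranges were Ccl2 -0.056 to 0.69, Ccl7 -0.34 to 0.51, Csf1 -0.014 to 0.061, Il6 -0.44 to 0.49 and Nfkbia -0.12 to 0.23. For WT ZT16 minus WT ZT4, the ranges were Csf1 -0.034 to 0.028, Cxcl5 -0.052 to 0.67, Tnfaip3 -0.053 to 0.011 and Vcam1 -0.11 to 0.066. For Bmal1hep-/- ZT16 minus WT ZT16, the ranges were Cxcl1 -0.30 to 0.27, Cxcl5 -0.073 to 0.63 and Il6 -0.77 to 0.052. For Bmal1hep-/- ZT4 minus WT ZT4, the ranges were Ccl7 -0.64 to 0.19, Cxcl5 -0.45 to 0.075, Il6 -0.37 to 0.57 and Nfkbia -0.24 to 0.086. Over both times, for Bmal1hep-/- minus WT, the ranges were Cxcl1 -0.28 to 0.0071, Cxcl5 -0.10 to 0.26, Il6 -0.36 to 0.11 and Vcam1 -0.087 to 0.029. Over both genotypes, for ZT16 minus ZT4, the ranges were Ccl7 -0.0047 to 0.42 and Csf1 -0.012 to 0.026. For the interaction, the ranges were Ccl2 -0.46 to 0.28, Ccl7 -0.68 to 0.17, Csf1 -0.0061 to 0.071, Cxcl1 -0.043 to 0.55 and Il6 -0.92 to 0.022.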

Other observations

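The table's column headings carry a replicate number of their own, which differs from that of the titles in 7 of 16 libraries; no label says what it stands for. The library headed 4 was the highest of its group in 4 of 4 groups for Ccl2, Cxcl5, Il6 and Vcam1 and in 3 of 4 for Nfkbia, Ccl7 and Cxcl1, and in 0 of 4 for Csf1 and Tnfaip3. Differences within groups by this number made up 77.8% of the total variation of Il6, 70.1% of that of Vcam1 and 62.1% of that of Cxcl1. For Cxcl5 the share was 59.5%, for Ccl2 54.8%, for Ccl7 52.2% and for Nfkbia 38.0%. It was 9.01% for Tnfaip3 and 6.35% for Csf1, against a median of 17.6% over all tested genes. Total variation includes that between groups, which was 53.3% for Tnfaip3 and for Csf1. A share as large as that of Il6 was found in 0.0849% of tested genes. By the number of the titles, the share was 34.2% for Il6 and 19.6% for Vcam1, with a median of 15.7% over all tested genes. The pattern was noticed in these data, and what it stems from was not tested.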
